A study of Mus musculus with 12 samples.

Results

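The genes described here are the 38 mouse genes whose identifier begins with Ube2 followed by a letter, out of 32699 genes in the deposited tables. Members were taken by name alone, but the family and the partner lists below were chosen with earlier results of these data known. Of the 38, 29 were among the 8273 genes that passed the expression filter. The filter was a CPM (expected counts scaled to a common library total) over 10 in at least 2 of the 12 libraries. Each of those 29 exceeded that level in all 12 libraries, so none passed only through the group in which it was high. RNA sequencing was done on G1E-ER4 cells, red cell precursors of the mouse derived from GATA-1-deficient embryonic stem cells, in which the transcription factor GATA-1 is carried as a fusion with the estrogen receptor (GATA-1ER), so that β-estradiol (E2) sets off red cell formation. The study asked whether blocking the removal of O-GlcNAc, a sugar placed on nuclear and cytoplasmic proteins, alters the erythroid gene programme during this differentiation. The groups, with 3 libraries each, were cells given 10 µM Thiamet-G (TMG), an inhibitor of the O-GlcNAc-removing enzyme OGA, together with 1 µM E2 (TMG_E2), cells given 1 µM E2 alone (E2), cells given 10 µM TMG alone (TMG), and cells without treatment (Ctrl), with treatments of 30 h. All groups were cultures of the fusion line at passages 35 to 40 in medium with erythropoietin, stem cell factor and puromycin, and none lacked the fusion, so effects of E2 on other targets cannot be told apart from effects through GATA-1ER. In the text below "E2" is always the estradiol, and the enzymes are called conjugating enzymes.

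Ubiquitin is attached to proteins by a relay in which an activating enzyme charges it, a conjugating enzyme receives it on a cysteine, and a ligase brings the conjugating enzyme to the substrate. The conjugating enzyme often sets which chain is built, and a few family members carry a ubiquitin-like protein such as NEDD8 or ISG15 in place of ubiquitin. Maturing red cells remodel and degrade much of their protein content through this system before they lose their organelles.

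The promoters of Ube2l6, Ube2h and Ube2j1 are shown first, since they were the 3 members past the filter at 2-fold or more in the cells in which GATA-1ER was activated. The windows run from 250 bases before to 50 bases after an annotated start and come from RefSeq (GRCm38.p6), 5′ to 3′ on the strand of the gene. Capitals mark AGATAA or its reverse complement TTATCT, the core bound by GATA factors, and CACCC or GGGTG, the core bound by Krüppel-like factors. Ube2l6 lies at chr2:84798828-84810003, its window is chr2:84798578-84798877 on the plus strand, and it holds 2 GGGTG matches. Ube2h lies at chr6:30211289-30304539 on the minus strand. The window of its outermost start, chr6:30304490-30304789, holds no marked match. A second Ube2h window within the gene, chr6:30243754-30244053, holds 1 AGATAA and 1 GGGTG. Ube2j1 lies at chr4:33031380-33052367, and its window, chr4:33031130-33031429 on the plus strand, holds 1 GGGTG.
Ube2l6: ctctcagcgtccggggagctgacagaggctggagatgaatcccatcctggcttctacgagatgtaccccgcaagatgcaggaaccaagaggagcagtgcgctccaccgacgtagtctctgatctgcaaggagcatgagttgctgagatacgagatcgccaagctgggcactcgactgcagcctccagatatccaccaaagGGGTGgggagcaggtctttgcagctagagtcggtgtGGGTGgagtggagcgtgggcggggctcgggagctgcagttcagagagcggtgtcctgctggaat
Ube2h, outermost start: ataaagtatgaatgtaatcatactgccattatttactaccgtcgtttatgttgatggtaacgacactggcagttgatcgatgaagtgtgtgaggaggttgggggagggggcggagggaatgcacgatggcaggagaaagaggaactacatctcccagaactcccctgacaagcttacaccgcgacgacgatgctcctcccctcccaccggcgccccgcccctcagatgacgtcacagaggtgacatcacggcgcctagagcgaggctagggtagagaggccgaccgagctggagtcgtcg
Ube2h, inner start: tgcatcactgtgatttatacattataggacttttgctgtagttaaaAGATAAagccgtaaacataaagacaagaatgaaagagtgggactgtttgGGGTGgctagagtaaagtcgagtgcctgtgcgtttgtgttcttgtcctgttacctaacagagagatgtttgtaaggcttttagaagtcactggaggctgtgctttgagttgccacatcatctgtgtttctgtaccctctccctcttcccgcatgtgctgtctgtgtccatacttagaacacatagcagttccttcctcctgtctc
Ube2j1: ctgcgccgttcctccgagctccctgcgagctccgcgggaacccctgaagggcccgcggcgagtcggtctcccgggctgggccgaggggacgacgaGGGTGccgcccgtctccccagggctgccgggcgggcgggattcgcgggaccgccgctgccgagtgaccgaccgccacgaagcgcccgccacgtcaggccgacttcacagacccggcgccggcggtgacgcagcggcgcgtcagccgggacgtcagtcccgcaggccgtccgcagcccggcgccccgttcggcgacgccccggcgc

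Among 32851 RefSeq windows of 300 bases, 11.2% hold AGATAA on either strand and 57.5% hold CACCC. The 22 tested members with a window have 32 windows together. Of these windows, 1 held AGATAA (the inner window of Ube2h) and 22 held CACCC. Counted by gene, 1 of the 22 had AGATAA and 17 had CACCC in any window, which is not the unit of the shares above. The interferon response element core, GAAA repeated after a gap of 2 bases, found in 3.44% of all windows, was in 0 of these 22 genes, Ube2l6 included. The loose E-box CANNTG, found in 72.3% of all windows and not marked in the sequences, was in 14 of the 32 windows (12 of the 22 genes). It can share bases with CACCC. These matches are descriptions of letters in a window, and a window without a match says only that the letters are not there.

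Libraries held 17589400 to 23178700 expected counts. After TMM scaling, which adjusts library totals for composition, 3 counts correspond to 0.133 to 0.180 CPM in a library. The cell type entry in the labels reads embryonic stem cell, while Pou5f1, Sox2 and Zfp42 had 0 counts in every library and the 4 stem cell markers together reached at most 0.281 CPM. The 7 erythroid markers, which include Tfrc and Slc4a1, summed to 6509 to 6775 CPM in TMG_E2, 6730 to 7027 in E2, 1246 to 1325 in TMG and 1229 to 1243 in Ctrl. The 5 mast cell markers moved the other way, at 0.321 to 0.599 CPM in TMG_E2, 0.280 to 0.910 in E2, 77.5 to 94.1 in TMG and 76.9 to 100.3 in Ctrl; Mcpt8 was at 0 throughout. Gata1, whose counts may include reads of the fusion, was at log2 1.85 ± 0.04 in E2 vs Ctrl (edgeR adjusted p = 8.25e-17). Markers differed with TMG too in cells without E2. In TMG vs Ctrl 2 of 7 erythroid markers were called higher (median log2 0.20). There 2 of 3 tested mast cell markers were called lower (median log2 -0.64), against 5.15% of all genes called in either direction. In TMG_E2 vs E2, 1 erythroid marker was called higher and 1 lower (median log2 -0.03). None of the 3 tested mast cell markers was called there, against 12.8% of all genes. These markers move with E2 and, in cells without E2, with TMG. Their part in the changes of the conjugating enzymes was not tested. In bulk RNA, fewer cells of a type and less RNA per cell cannot be told apart. The labels do not say whether the 3 libraries of a group come from separate cultures; the p-values rest on the scatter among them, which can be purely technical.

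Levels of the conjugating enzymes, compared between genes per transcript length as TPM (RSEM's length-scaled transcript share), covered more than an order of magnitude within the tested members. Ube2s, which extends ubiquitin chains for the anaphase-promoting complex, stood highest in every group, at 355 ± 17.5 TPM in TMG_E2, 359 ± 8.70 in E2, 375 ± 3.96 in TMG and 396 ± 15.3 in Ctrl (SD, n = 3 each). Next in the libraries with E2 came Ube2v1 (275 ± 7.12 TPM in TMG_E2 and 286 ± 4.80 in E2) and then Ube2c (231 ± 1.99 in TMG_E2 and 230 ± 8.39 in E2). In the libraries without E2 the neighbours Ube2v1 (208 ± 3.05 in TMG and 209 ± 5.33 in Ctrl) and Ube2d3 (207 ± 5.83 in TMG and 211 ± 0.374 in Ctrl) did not differ beyond their spread. The lowest tested members in Ctrl were Ube2h at 9.85 ± 0.544 TPM and Ube2l6 at 15.6 ± 0.965 TPM, the 2 tested members with the highest fold changes under E2. The summed TPM of all 38 members was 2697 ± 12.7 in TMG_E2, 2693 ± 10.5 in E2, 2573 ± 24.1 in TMG and 2632 ± 24.7 in Ctrl. Ube2s overlaps Rpl28, a ribosomal protein gene on the opposite strand, over 521 bases, and Rpl28, named for that overlap, stood at 1440, 1320, 1052 and 977 CPM in TMG_E2, E2, TMG and Ctrl; whether reads were counted by strand is not stated in the sources read for this text.

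**Figure D1:**
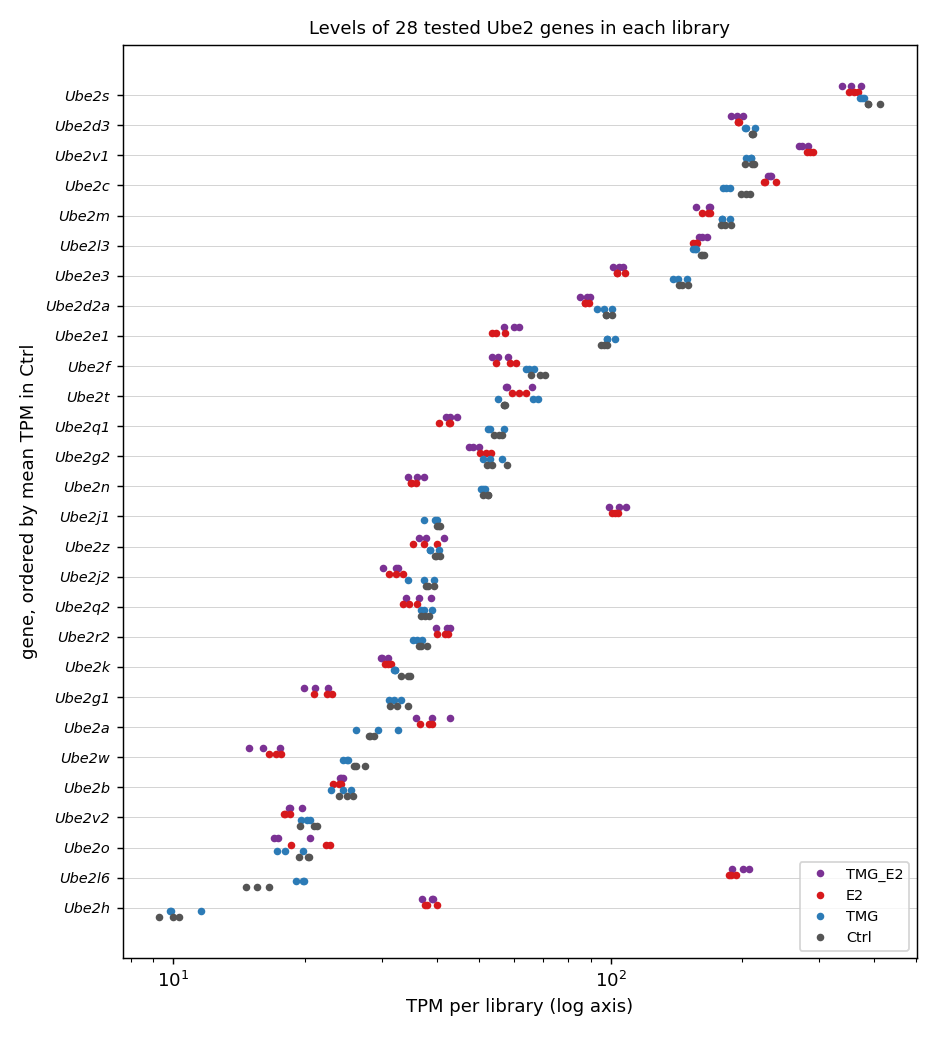
TPM of 28 of the tested Ube2 genes in each of the 12 libraries on a log axis, ordered by their mean in Ctrl, with 1 point per library coloured by group. Ube2l6, Ube2h and Ube2j1 stand out with TMG_E2 and E2 points far to the right of the TMG and Ctrl points, as at 199 and 189 against 19.6 and 15.6 TPM for Ube2l6.

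E2 alone raised 13 members and lowered 7 relative to Ctrl, while 9 did not pass the threshold (edgeR quasi-likelihood test, Benjamini-Hochberg adjusted p under 0.05 over 8273 genes). The 20 called members are 69.0% of the 29, against 82.7% called among all genes tested (41.5% higher and 41.2% lower). The members' median log2 fold change was 0.07, against -0.00 for all genes, and the median size of change regardless of sign was 0.28, against 0.41 for all genes. At 2-fold or more, 3 members were higher and 0 lower, against 8.67% higher and 8.68% lower of all genes. Those 3 were Ube2l6, Ube2h and Ube2j1, and the others lay between -0.61 and 0.65. With library size alone as the scaling, which moves the median of all genes by -0.10, the split of the members was 9 higher and 9 lower (82.4% of all genes called); Ube2d3 was the called gene whose sign turned. Of the 20 calls, 16 held under all 13 alternatives tried.

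**Figure D2:**
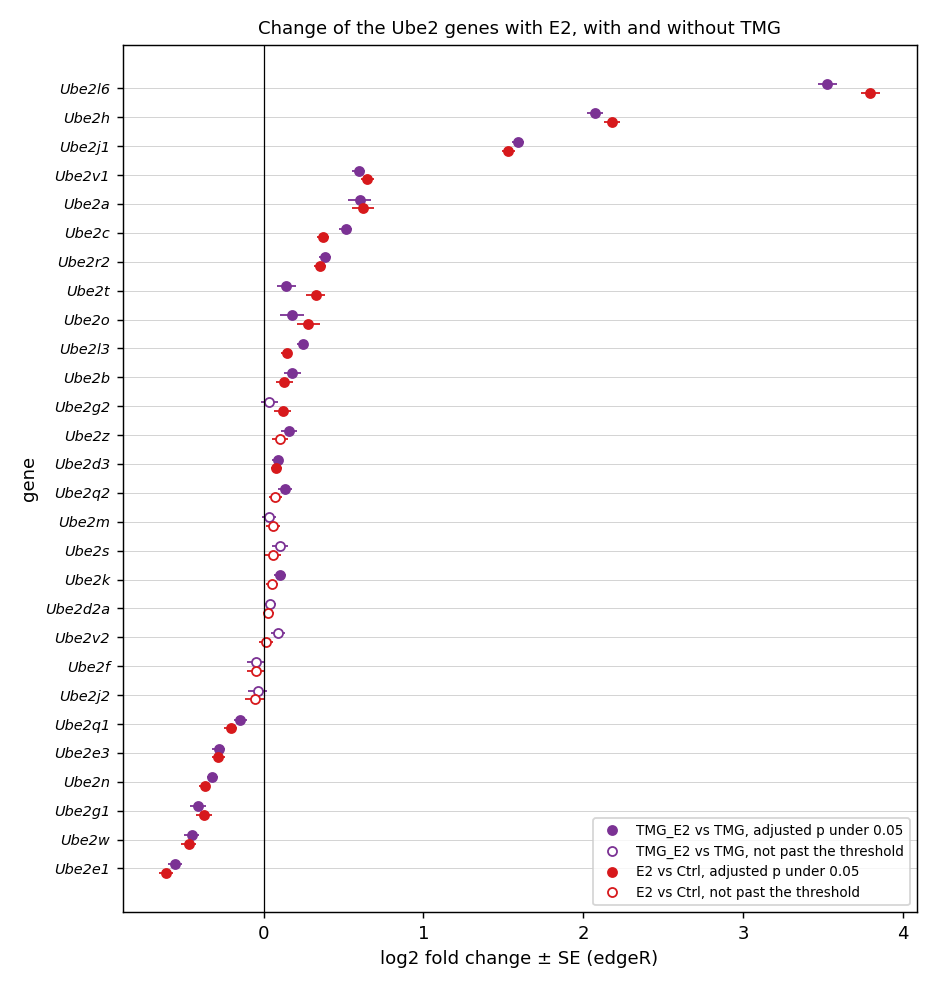
Log2 fold changes ± SE of 28 of the tested Ube2 genes with E2, in TMG-treated cells (TMG_E2 vs TMG) and in cells without TMG (E2 vs Ctrl), filled where the edgeR adjusted p was under 0.05. Ube2l6 (3.53 and 3.80), Ube2h (2.07 and 2.18) and Ube2j1 (1.59 and 1.53) lie apart from the other genes, and for every gene drawn both points lie on the same side of 0.

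Ube2l6 encodes the conjugating enzyme of ISG15, an interferon-induced ubiquitin-like protein, and can also carry ubiquitin. It had 163, 168 and 171 CPM (scaled by TMM, as all CPM below) in the E2 libraries, against 11.9, 11.4 and 12.8 CPM in the Ctrl libraries. Every E2 library stood far above every Ctrl library, and the fold change was 13.9 (log2 3.80 ± 0.06, edgeR adjusted p = 1.42e-18). Its nearest relative Ube2l3, which works with ligases of the RBR type, had 278, 280 and 274 CPM with E2 against 249, 251 and 253 in Ctrl (log2 0.14 ± 0.03, edgeR adjusted p = 0.000651). That call ended with library size alone as the scaling, at log2 0.05. Ube2l3 overlaps Ydjc on the opposite strand over 8689 bases, and Ydjc, named here for that overlap, stood at 6.01 CPM in E2 and 44.7 CPM in Ctrl.

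Other genes of the ISG15 pathway did not form a complete set in these cells. Uba7, the activating enzyme that charges ISG15, had 125, 107 and 108 CPM with E2 against 25.9, 26.2 and 26.4 CPM in Ctrl (log2 2.11 ± 0.07, edgeR adjusted p = 1.60e-14). Uba7 was the 1 of 4 listed pathway genes that passed the filter. Isg15 itself, named after its values were seen, averaged 0.104 ± 0.0530 CPM in E2 and 0.0602 ± 0.0676 CPM in Ctrl, means below the level of 3 counts. The ligase gene Herc6 reached at most 0.0505 CPM in any library, and Usp18, the protease that removes ISG15, averaged 0.871 ± 0.130 CPM in E2 and 0.586 ± 0.101 CPM in Ctrl.

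Ube2h is the conjugating enzyme of the CTLH ligase, a multi-subunit complex known from red cell maturation. It had 121, 130 and 121 CPM with E2 against 28.4, 25.8 and 27.9 CPM in Ctrl. No E2 library came near a Ctrl library, and the fold change was 4.53 (log2 2.18 ± 0.05, edgeR adjusted p = 1.14e-16). Of the 11 CTLH genes, all tested, 8 rose and 2 fell with E2 (90.9% called), with a median log2 fold change of 0.72; with library size alone 7 rose and 3 fell, median 0.62. Counts of this list and of those below stand against 82.7% called among all genes (41.5% higher and 41.2% lower, median -0.00), and over all partner lists 104 of 126 genes were called (82.5%). Ypel5, a CTLH-associated protein, rose most, at 54.7, 64.2 and 56.8 CPM with E2 against 8.33, 8.54 and 8.36 CPM in Ctrl (log2 2.80 ± 0.08, edgeR adjusted p = 2.75e-15). The lowest was Gid4, a substrate receptor, at log2 -0.27 ± 0.06 (edgeR adjusted p = 0.000423). Among the others, named after their values were seen, the subunit genes Ranbp10 and Wdr26 changed by log2 2.43 ± 0.04 and 1.05 ± 0.04 and Gid8 by 1.01 ± 0.05. Maea, which encodes a catalytic RING subunit, fell by 0.26 on the log2 scale (SE 0.04), while Rmnd5a, the gene of its RING partner, was at log2 0.93 ± 0.04. Rmnd5b, a close copy of Rmnd5a, was the gene that did not pass the threshold, at log2 -0.11 ± 0.06.

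Ube2j1 is anchored in the membrane of the endoplasmic reticulum and serves the degradation of misfolded proteins there (ERAD). It had 244, 255 and 250 CPM with E2 against 86.1, 87.6 and 85.5 CPM in Ctrl (fold change 2.89, log2 1.53 ± 0.04, edgeR adjusted p = 5.18e-16). The groups were widely separated, and the 3 Ctrl libraries lay within a few CPM of each other. Ube2j2, the other membrane-anchored enzyme, had 72.7, 76.4 and 78.6 CPM with E2 against 80.4, 78.2 and 78.3 CPM in Ctrl, which overlap (log2 -0.06 ± 0.06, edgeR adjusted p = 0.385). With library size alone Ube2j2 was called lower (log2 -0.15, adjusted p = 0.0200). Ube2g2, a soluble enzyme of the same pathway, had 65.7, 70.4 and 68.5 CPM with E2 against 61.2, 60.6 and 66.6 CPM in Ctrl. Its change was called (log2 0.12 ± 0.05, edgeR adjusted p = 0.0445), but 1 E2 library lay within the Ctrl range and the call ended in 8 of 13 alternatives, for example at adjusted p = 0.156 without Ctrl replicate 2. Ube2g1, the relative of Ube2g2 known to build ubiquitin chains on substrates of cullin ligases, fell, with 52.8, 59.9 and 57.4 CPM with E2 against 76.4, 70.8 and 73.5 CPM in Ctrl (log2 -0.37 ± 0.05, edgeR adjusted p = 1.50e-06). Of 16 tested ERAD genes, 13 rose and 1 fell with E2 (87.5% called), with a median of 0.29; with library size alone 10 rose and 3 fell. Derl1, a channel component, had the highest change (log2 0.95 ± 0.04, edgeR adjusted p = 1.46e-13) and Herpud1, an ER stress protein of the complex, the lowest (log2 -0.55 ± 0.07, edgeR adjusted p = 1.28e-06).

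**Figure D3:**
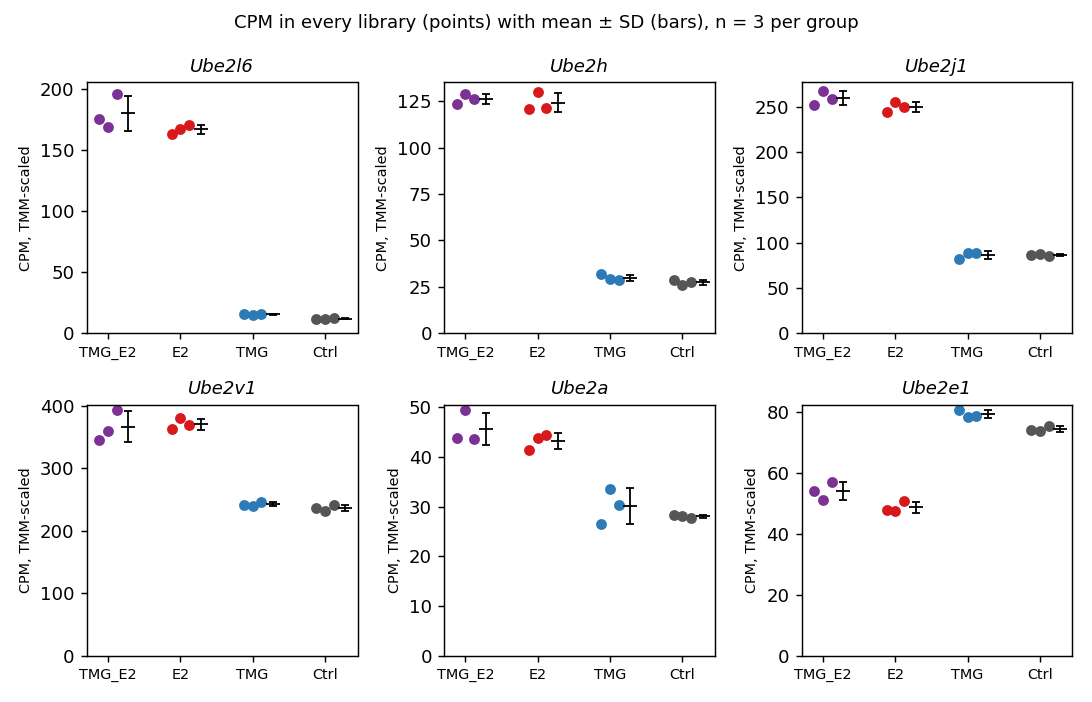
CPM (TMM-scaled) in every library for Ube2l6, Ube2h, Ube2j1, Ube2v1, Ube2a and Ube2e1, with the mean ± SD of 3 libraries beside the points. The TMG_E2 and E2 libraries of the first 5 genes lie above all TMG and Ctrl libraries, those of Ube2e1 lie below, and the Ube2a libraries of TMG spread from 26.5 to 33.5 CPM.

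The partners that build lysine-63 chains moved in opposite directions. Ube2v1, a family member that lacks the catalytic cysteine and pairs with Ube2n, had 362, 380 and 370 CPM with E2 against 237, 231 and 241 CPM in Ctrl (log2 0.65 ± 0.04, edgeR adjusted p = 1.51e-10). Every E2 library exceeded every Ctrl library by a wide margin. Ube2v2, which can take the same place beside Ube2n, had 74.3, 75.2 and 77.0 CPM with E2 against 70.4, 78.0 and 76.0 CPM in Ctrl and was not called (log2 0.01 ± 0.04, edgeR adjusted p = 0.771). Ube2n itself fell to 94.6 ± 0.857 CPM with E2, against 122 ± 2.53 CPM in Ctrl (log2 -0.37 ± 0.03, edgeR adjusted p = 1.73e-08, n = 3 each). Of 6 genes that act with Ube2n, 1 rose and 2 fell (50.0% called): the ligase Traf6 was at log2 0.18 ± 0.05 (edgeR adjusted p = 0.00174) and Shprh, a ligase for PCNA, at log2 -0.70 ± 0.05 (edgeR adjusted p = 8.40e-10). With library size alone, Traf6 was not called (log2 0.08) and 0 rose and 3 fell.

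Ube2a and Ube2b are the mouse copies of yeast RAD6 and ubiquitinate histone H2B and PCNA. Ube2a, on the X chromosome, had 41.3, 43.8 and 44.3 CPM with E2 against 28.3, 28.2 and 27.7 CPM in Ctrl (log2 0.62 ± 0.07, edgeR adjusted p = 3.34e-07). Ube2b had 32.7, 34.5 and 34.1 CPM with E2 against 31.8, 30.0 and 30.9 CPM in Ctrl. The Ube2b groups did not overlap but were close, and its call (log2 0.13 ± 0.05, edgeR adjusted p = 0.0319) ended in 7 of 13 alternatives, for example at adjusted p = 0.108 without Ctrl replicate 2. All 6 partner genes of this pair rose with E2 under both scalings, with a median of 0.41. Rad18, the ligase that brings the enzyme to PCNA, was highest at log2 0.72 ± 0.05 (edgeR adjusted p = 3.64e-10). A gene on the opposite strand, C330007P06Rik, shares 212 bases with Ube2a and was at log2 0.39.

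Enzymes of cell division and DNA repair showed smaller changes. Ube2c, which starts chains for the anaphase-promoting complex, stood at 126 ± 3.86 CPM with E2 against 97.5 ± 1.95 CPM in Ctrl (log2 0.37 ± 0.04, edgeR adjusted p = 1.17e-07). Its chain-extending partner Ube2s was at 213 ± 4.81 CPM with E2 and 204 ± 6.93 CPM in Ctrl, a difference that did not pass the threshold (log2 0.06 ± 0.05, edgeR adjusted p = 0.307). Of 17 genes of that complex and its regulators, 6 rose and 5 fell (64.7% called), a split that became 4 and 9 with library size alone. Cdc27, a core subunit, was at log2 0.87 ± 0.05 and Anapc4, a scaffold subunit, at log2 -0.52 ± 0.04. Ube2t, the enzyme that mono-ubiquitinates FANCD2 and FANCI in the Fanconi pathway, rose by log2 0.33 ± 0.06 (edgeR adjusted p = 0.000105). In the 10 Fanconi genes, 5 rose and 4 fell (90.0% called; 2 and 4 with library size alone), with Fanci at log2 0.43 ± 0.06 and Fancb at log2 -0.83 ± 0.10. Ube2r2, a close relative of CDC34 that serves SCF ligases, rose by log2 0.36 ± 0.04 (edgeR adjusted p = 9.48e-08). Ube2o, a large enzyme with ligase activity of its own that clears ribosomal proteins in mouse reticulocytes, had 67.4, 81.0 and 80.0 CPM with E2 against 62.8, 62.5 and 63.1 CPM in Ctrl (log2 0.28 ± 0.07, edgeR adjusted p = 0.00205).

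In all, 7 members fell with E2 (among them Ube2e1, Ube2w, Ube2g1, Ube2n, Ube2e3 and Ube2q1), by 0.21 to 0.61 on the log2 scale. Ube2e1, an enzyme with a broad range of ligases, fell most and had 47.8, 47.5 and 50.7 CPM with E2 against 74.1, 73.7 and 75.3 CPM in Ctrl (log2 -0.61 ± 0.04, edgeR adjusted p = 6.92e-10). Its relative Ube2e3 had 102, 108 and 103 CPM with E2 against 124, 132 and 126 CPM in Ctrl (log2 -0.28 ± 0.04, edgeR adjusted p = 4.42e-06). Both pairs of groups are clear of each other. Ube2w, which attaches ubiquitin to the amino terminus of proteins, was at 33.1 ± 0.365 CPM with E2 and 45.8 ± 1.14 CPM in Ctrl (log2 -0.47 ± 0.04, edgeR adjusted p = 2.75e-08). Ube2q1 had 90.0, 91.0 and 85.8 CPM with E2 against 99.8, 104 and 104 CPM in Ctrl (log2 -0.21 ± 0.04, edgeR adjusted p = 0.000128), and its relative Ube2q2 had 72.1, 68.1 and 69.8 against 64.5, 68.5 and 66.4 CPM and was not called (log2 0.07 ± 0.04, edgeR adjusted p = 0.115).

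The Ube2d enzymes, which work with many RING ligases, had small differences. Ube2d3 had 352, 357 and 355 CPM with E2 against 334, 338 and 335 CPM in Ctrl, a small change (log2 0.08 ± 0.03, edgeR adjusted p = 0.0311) that was lost in 8 of 13 alternatives and had the opposite sign with library size alone (log2 -0.02). Ube2d2a had 149, 148 and 147 CPM with E2 against 143, 145 and 148 CPM in Ctrl (log2 0.03 ± 0.04, edgeR adjusted p = 0.450). The NEDD8-conjugating enzymes Ube2m and Ube2f, which act on cullins, were not called either, at log2 0.06 ± 0.04 and -0.05 ± 0.06; with library size alone Ube2f was called lower (log2 -0.14, adjusted p = 0.0220). Of 14 tested neddylation genes 12 were called (85.7%, near the 82.7% of all genes), 5 higher and 7 lower, from Cul4a, a cullin, at log2 0.72 ± 0.04 to Dcun1d4, a helper of NEDD8 ligases, at log2 -1.86 ± 0.06. Ube2k, which builds lysine-48 chains, and Ube2z, which receives ubiquitin from the activating enzyme UBA6, complete the members not called, at log2 0.05 ± 0.04 and 0.10 ± 0.05. For Ube2z the adjusted p of 0.0702 became 0.0403 with a replicate block and 0.0180 without E2 replicate 3. The 9 members that were not called lay between log2 -0.06 and 0.10.

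Within most pairs of relatives, the share of transcripts from each gene differed between libraries with and without E2. In 1 pair, Ube2l6 and Ube2l3, the gene with the larger share changed. Ube2l6 made up 55.1 ± 1.01% of the summed TPM of Ube2l6 and Ube2l3 in TMG_E2, 54.8 ± 0.755% in E2, 11.2 ± 0.264% in TMG and 8.79 ± 0.430% in Ctrl (SD, n = 3 each). For Ube2j1 of the pair Ube2j1 and Ube2j2 the shares were 76.6 ± 1.10% in TMG_E2, 76.0 ± 0.571% in E2, 51.4 ± 0.847% in TMG and 51.3 ± 0.555% in Ctrl. In both pairs the ranges of the libraries with and without E2 were far apart. Ube2a supplied 61.8 ± 2.07%, 61.6 ± 0.362%, 54.7 ± 2.52% and 53.3 ± 0.731% of its pair with Ube2b in TMG_E2, E2, TMG and Ctrl. Ube2g1 moved the other way in its pair with Ube2g2, at 30.3 ± 1.85%, 29.9 ± 0.401%, 37.5 ± 1.94% and 37.5 ± 1.61% in the same order of groups. Ube2v1 held most of its pair with Ube2v2 everywhere, at 93.6%, 94.0%, 91.2% and 91.0%. Ube2e1 was at 36.5%, 34.4%, 41.0% and 39.7% of its pair with Ube2e3. For Ube2q1 in its pair with Ube2q2 the shares were 54.2%, 54.7%, 58.9% and 59.5%. Ube2m showed no clear shift in its pair with Ube2f, at 74.7%, 74.1%, 73.6% and 72.8%, and its E2 and TMG libraries overlapped. These shares are ratios of values within a library, so they do not depend on how libraries are scaled, and no test was run on them.

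**Figure D4:**
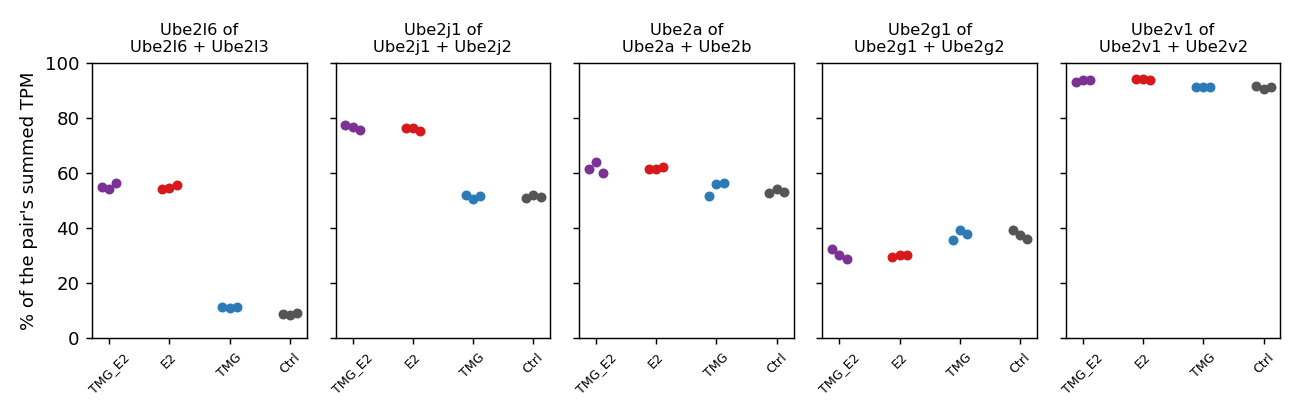
Share of a pair's summed TPM supplied by the first gene, in % per library (1 point each, 3 libraries per group), for 5 pairs of related Ube2 genes. The shares of Ube2l6 and Ube2j1 are higher in TMG_E2 and E2 than in TMG and Ctrl, at 55.1% and 54.8% against 11.2% and 8.79% for Ube2l6, and that of Ube2g1 is lower.

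The same E2 contrast in cells that also received TMG, TMG_E2 vs TMG, uses none of the libraries of E2 vs Ctrl. There 22 of the 29 members were called (75.9%, against 82.7% of all genes tested, 40.9% higher and 41.8% lower), 15 higher and 7 lower, and with library size alone 8 higher and 9 lower (83.4% of all genes called). With TMM scaling all 29 fold changes had the same sign as in E2 vs Ctrl, and 19 members were called in both. These 2 counts were not made over all genes, of which 82.7% were called in each contrast. They do not show that such agreement is particular to these members. Ube2g2 was called in E2 vs Ctrl alone, and Ube2k, Ube2q2 and Ube2z (log2 0.10, 0.13 and 0.16) in TMG_E2 vs TMG alone, which does not show that their response differed. Ube2l6 had 175, 169 and 197 CPM in TMG_E2 against 15.6, 15.3 and 16.02 CPM in TMG (fold change 11.5, log2 3.53 ± 0.06, edgeR adjusted p = 2.95e-18). Ube2h had 123, 129 and 126 CPM in TMG_E2 against 31.9, 29.2 and 28.7 CPM in TMG (log2 2.07 ± 0.05). Ube2j1 had 253, 268 and 259 CPM in TMG_E2 against 81.5, 88.9 and 88.2 CPM in TMG (log2 1.59 ± 0.04). These 3 were again the members at 2-fold or more, all higher, against 8.84% of all genes higher and 9.57% lower (18.4% in either direction). In the partner lists, 8 of 11 CTLH genes rose and 2 fell (90.9% called), and 12 of 16 ERAD genes rose and 1 fell (81.2%). All 6 RAD6 partners rose (5 with library size alone). Other lists were mixed: 1 rose and 4 fell of 9 activating enzyme genes (55.6% called), and 5 rose and 6 fell of 14 neddylation genes (78.6%). For 10 Fanconi genes the split was 4 and 3, and for 17 genes of the anaphase-promoting complex 8 and 5. Over all partner lists 67 of 126 genes rose and 33 fell (79.4% called). Several small values lay near the threshold. Ube2o (log2 0.18 ± 0.08, edgeR adjusted p = 0.0405) lost its call in 5 of 13 alternatives, at adjusted p = 0.121 without TMG replicate 1, 0.127 without TMG replicate 2 and 0.267 without TMG_E2 replicate 2. Ube2t (log2 0.14 ± 0.06, edgeR adjusted p = 0.0405) lost it in 6 of 13, at adjusted p = 0.256 without TMG replicate 3, 0.143 without TMG_E2 replicate 1 and 0.0512 without TMG_E2 replicate 3. Ube2s (log2 0.10 ± 0.05, edgeR adjusted p = 0.0634) gained a call at adjusted p = 0.00204 without TMG_E2 replicate 1, 0.0388 with DESeq2 and 0.0418 with RLE size factors.

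Far fewer members passed the threshold with TMG than with E2. TMG vs Ctrl shares its Ctrl libraries with E2 vs Ctrl. There 5 of the 29 members had an unadjusted edgeR p under 0.05, against 1564 of all 8273 genes. After adjustment 1 of the 29 members was called (3.45%, against 5.15% of all genes tested). That member was Ube2l6, with 15.6, 15.3 and 16.02 CPM in TMG against 11.9, 11.4 and 12.8 CPM in Ctrl, groups that do not overlap (log2 0.38 ± 0.08, edgeR adjusted p = 0.0104). The call held in 12 of 13 alternatives, with adjusted p from 0.000651 to 0.0548, and was lost without Ctrl replicate 2. The erythroid markers called higher and mast cell markers called lower in TMG vs Ctrl, given above, move with it, and their part in it was not tested. As a point of reference, Mgea5, which encodes OGA, the target of TMG, rose by log2 0.36 ± 0.04 (edgeR adjusted p = 1.73e-05). Ube2h had 31.9, 29.2 and 28.7 CPM in TMG against 28.4, 25.8 and 27.9 CPM in Ctrl and was not called (log2 0.13 ± 0.06, edgeR adjusted p = 0.216). For Ube2j1 the 95% interval of the log2 fold change was -0.08 to 0.08, and for Ube2v1 it was -0.05 to 0.12. These intervals are normal approximations from the SE and are somewhat narrower than the edgeR test implies. Ube2t had 36.4, 36.3 and 30.6 CPM in TMG against 30.0, 30.7 and 30.3 CPM in Ctrl. It was not called (log2 0.19 ± 0.06, edgeR adjusted p = 0.0955), but replicate 3 stood apart from the other TMG libraries and the adjusted p was 0.0170 without it. The 28 members that were not called lay between log2 -0.10 and 0.19.

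In cells given E2, TMG_E2 vs E2 called 1 of the 29 members (3.45%, against 12.8% of all genes tested). At an unadjusted edgeR p under 0.05 there were 6 of the 29, against 2306 of all 8273 genes. This comparison shares its E2 libraries with E2 vs Ctrl and its TMG_E2 libraries with TMG_E2 vs TMG. Ube2e1 had 54.1, 51.1 and 57.1 CPM in TMG_E2 against 47.8, 47.5 and 50.7 CPM in E2 (log2 0.15 ± 0.05, edgeR adjusted p = 0.0399). The groups are next to each other without overlap, and the call was lost in 8 of 13 alternatives, at adjusted p up to 0.154 without E2 replicate 2. Ube2l6 had 175, 169 and 197 CPM in TMG_E2 against 163, 168 and 171 CPM in E2, which overlap (log2 0.11 ± 0.05, edgeR adjusted p = 0.147). Ube2o had 59.6, 73.7 and 65.1 CPM in TMG_E2 against 67.4, 81.0 and 80.0 CPM in E2, and its change of log2 -0.21 ± 0.07 missed the threshold (edgeR adjusted p = 0.0741). With a replicate block 2 members were called, 1 higher and 1 lower, and Ube2o was the lower one at edgeR adjusted p = 0.0225. Ube2o also passed with no filter (0.0127), without E2 replicate 1 (0.0197) or without TMG_E2 replicate 2 (0.0181). Ube2l3 was at log2 0.09 ± 0.03 (edgeR adjusted p = 0.0809). It passed at adjusted p = 0.0414 with DESeq2 and at edgeR adjusted p = 0.0481 without TMG_E2 replicate 2. The 95% intervals of the log2 fold change, normal approximations as above, were -0.06 to 0.11 for Ube2h and -0.02 to 0.13 for Ube2j1.

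The interaction, the TMG effect with E2 minus the TMG effect without it, called 0 of the 29 members with edgeR and 0 with DESeq2 (0.931% of all genes tested with edgeR). In edgeR, 3 of the 29 had an unadjusted p under 0.05, against 914 of all 8273 genes. The lowest of these p-values belonged to Ube2l6, at log2 -0.27 ± 0.09 (edgeR adjusted p = 0.222). Leaving out TMG_E2 replicate 3, the library in which Ube2l6 stood at 197 CPM, brought the adjusted p to 0.0308 and the value to log2 -0.34. The others were Ube2c at log2 0.14 ± 0.06 and Ube2l3 at log2 0.10 ± 0.05 (edgeR adjusted p = 0.309 and 0.444).

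**Figure D5:**
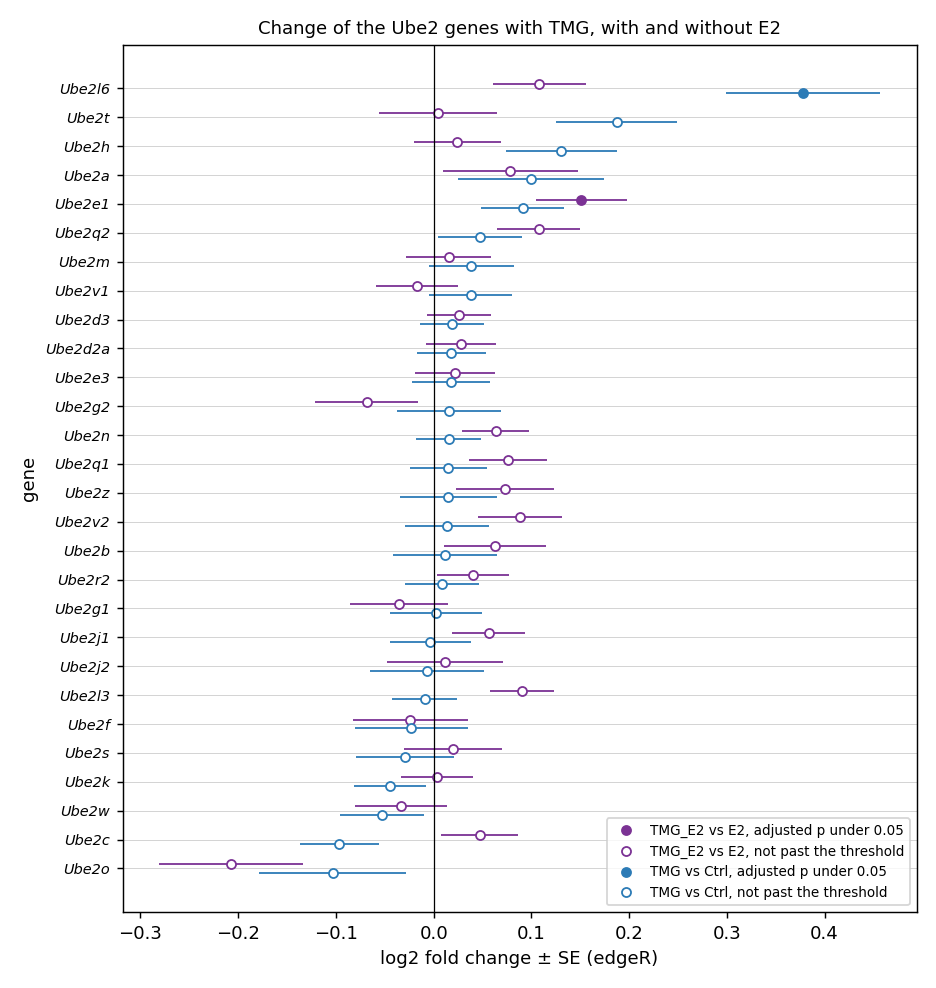
Log2 fold changes ± SE of 28 of the tested Ube2 genes with TMG, in cells given E2 (TMG_E2 vs E2) and in cells without it (TMG vs Ctrl), filled where the edgeR adjusted p was under 0.05. Ube2l6 in TMG vs Ctrl (0.38) and Ube2e1 in TMG_E2 vs E2 (0.15) are the filled points, and Ube2o lies lowest in TMG_E2 vs E2 (-0.21).

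Among the 126 partner genes of all lists, 5 were called higher and 2 lower in TMG_E2 vs E2 (5.56%, against 12.8% of all genes), with 1 call in 11 CTLH, 16 ERAD and 10 Fanconi genes each and 0 in 17 genes of the anaphase-promoting complex and 14 of neddylation. Uba7 had 156, 143 and 135 CPM in TMG_E2 against 125, 107 and 108 CPM in E2, groups that do not overlap (log2 0.35 ± 0.06, edgeR adjusted p = 0.00152). Ypel5 had 65.6, 76.4 and 71.6 CPM in TMG_E2 against 54.7, 64.2 and 56.8 CPM in E2 (log2 0.28 ± 0.06, edgeR adjusted p = 0.00967). Ufm1, a ubiquitin-like protein, was at log2 0.27 ± 0.06 (edgeR adjusted p = 0.00467), Rnf185, an ERAD ligase, at log2 0.23 ± 0.07 (edgeR adjusted p = 0.0425, but 0.0550 with library size alone) and Fancg, of the Fanconi core complex, at log2 -0.26 ± 0.07 (edgeR adjusted p = 0.0277). The other calls, named after their values were seen, were Sae1, a subunit of an activating enzyme, at log2 -0.12 ± 0.03 (edgeR adjusted p = 0.0261) and Fau, a ubiquitin-like fusion with a ribosomal protein, at log2 0.19 ± 0.06 (edgeR adjusted p = 0.0459). In TMG vs Ctrl the 1 list gene called of 126 (0.794%, against 5.15% of all genes) was Rps27a, which encodes ubiquitin fused to a ribosomal protein, at log2 0.19 ± 0.04 (edgeR adjusted p = 0.00989).

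The remaining lists held calls in both directions with E2, at shares of 77.8% to 100%, against 82.7% among all genes. Of 9 tested activating enzyme genes 2 rose and 5 fell (77.8% called; 1 and 6 with library size alone), from Uba7 above to Uba6, which activates ubiquitin for Ube2z, at log2 -0.85 ± 0.05 (edgeR adjusted p = 3.04e-11). Of 6 tested conjugating and related genes named otherwise, 4 rose and 2 fell (3 and 2 with library size alone), from Tsg101, a catalytically inactive relative in the endosomal sorting machinery, at log2 0.90 ± 0.04 to Birc6, a giant enzyme that inhibits cell death, at log2 -0.25 ± 0.07. Among 11 ubiquitin and ubiquitin-like genes 6 rose and 3 fell (81.8% called; 4 and 3 with library size alone). Of 10 RBR ligases, the partners of Ube2l3, 8 rose and 1 fell (90.0% called; 7 and 2 with library size alone), from Rnf19b at log2 1.38 ± 0.07 to Rbck1, of the linear chain assembly complex, at log2 -0.20 ± 0.06.

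The other 9 members did not pass the expression filter. Ube2d1, Ube2dnl1, Ube2dnl2, Ube2e2, Ube2ql1 and Ube2u had 0 counts in every library, which allows up to 0.133 to 0.180 CPM in a library. Ube2d2b had 7, 6, 1 and 2 counts over the 3 libraries of TMG_E2, E2, TMG and Ctrl. Ube2d-ps, annotated by RefSeq as a long noncoding RNA, stood at 4.02 ± 0.771, 4.28 ± 0.251, 4.91 ± 0.455 and 5.67 ± 0.706 CPM in the same order. Ube2cbp, which carries the synonym Ube3d in RefSeq and is named for its binding of UBE2C rather than for being a conjugating enzyme, had 0.9001, 1.08 and 1.31 CPM with E2 against 4.78, 5.47 and 5.65 CPM in Ctrl. Its TMG_E2 libraries had 0.985, 0.856 and 1.26 CPM against 5.45, 6.18 and 4.82 CPM in TMG, so every library with E2 was below every library without it. In the fit without the filter over 16108 genes, of which 53.7% were called, Ube2cbp was at log2 -2.26 ± 0.18 in E2 vs Ctrl (edgeR adjusted p = 3.60e-19) and at log2 -2.42 ± 0.19 in TMG_E2 vs TMG (edgeR adjusted p = 4.58e-20).

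The counting affects some relatives more than others. RSEM divides reads that match several genes, which leaves fractions in the expected counts. For 17 of the 29 tested members, among them Ube2h, Ube2j1, Ube2a, Ube2b, Ube2o and Ube2s, the counts were whole in all 12 libraries (tolerance 0.005). They were whole in 10 libraries for Ube2v1 and Ube2g1, in 8 for Ube2l6 and Ube2c, in 4 for Ube2d2a and in 2 for Ube2v2. For Ube2d3 they were whole in 1 library, and for Ube2e1, Ube2j2, Ube2l3 and Ube2w in 0. Values of all these genes include shared reads and are less certain. Opposite-strand neighbours with their own reads touch Ube2e1 too: it overlaps Nkiras1, at 6.96, 7.48, 5.88 and 6.55 CPM in TMG_E2, E2, TMG and Ctrl, over 1282 bases.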

How the data were processed

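Poly(A) RNA of 12 libraries (4 groups of 3) was sequenced from a stranded kit. Per the labels' protocols and the submitters' design text, the authors used FastQC 0.11.2, RSEM 1.2.22 on mouse GRCm38/mm10, and R 3.2.2 with edgeR 3.14.0; Bowtie2 is named in the submitters' processing notes, and no source read for this text states how RSEM handled strand. The deposited files hold expected counts per gene, the deposited TPM per transcript length, and effective lengths; the FPKM values were not used.

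Expected counts were rounded to whole numbers, the submitters' filter was applied (CPM over 10, at least 2 libraries), and all 12 libraries were fitted together with edgeR 4.0.16 (TMM scaling, quasi-likelihood test, Benjamini-Hochberg adjustment over 8273 genes, R 4.3.3). The 5 comparisons were E2 and TMG, each alone, against Ctrl, TMG_E2 against either single treatment, and the interaction of both agents. Scripts were tested on simulated data. Depth was 17589400 to 23178700 expected counts per library, and floors of 3 counts cover counting error only. DESeq2 1.42.0, other scalings, no filter, an effective length offset, a replicate block, fits on the compared groups alone and leaving out each replicate were the alternatives. Deviations of same-numbered libraries correlated by 0.108 to 0.278 in E2 vs Ctrl, 0.182 to 0.285 in TMG_E2 vs E2 and 0.149 to 0.525 in TMG_E2 vs TMG. In TMG vs Ctrl they correlated by 0.0295 to 0.188. That range overlaps the others, so these values do not settle whether the replicate numbers pair libraries. The main fit does not pair them, and the replicate block is the alternative that does.

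The genes and the partner lists were chosen with earlier results of these data known. Libraries are given one by one for members at 2-fold or more, for members called with TMG, and for groups of close relatives in the family (a and b, d, e, g, j, l, q, v); Ube2o, Ube2t and Ube2cbp were added after their values were seen; from a list, the highest and lowest called gene is named in E2 vs Ctrl and the gene with the smallest p in the TMG comparisons. Gene positions and promoters come from RefSeq (GRCm38.p6), which matched 38 of 38 members. Results for some genes, 1 tested member among them, are not reported here; counts over the family include it.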

Additional observations from a re-analysis of the deposited data

How the results depend on the processing

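Under the 13 alternatives, 16 of 20 member calls held in E2 vs Ctrl and 15 of 22 in TMG_E2 vs TMG, while 0 of 1 held in TMG vs Ctrl and 0 of 1 in TMG_E2 vs E2. Ube2d3 turned direction with library size alone, to log2 -0.0167 in E2 vs Ctrl and -0.0088 in TMG_E2 vs TMG. In TMG_E2 vs E2 the number of members called was 2 with DESeq2, 2 with the replicate block, and 0 with the effective length offset, with library size alone and on the compared groups alone. Over all genes, the interaction called 41 with the effective length offset, 178 with no filter and 171 with the replicate block. TMG vs Ctrl called 768 genes on the compared groups alone and 675 with the replicate block, and TMG_E2 vs E2 called 539 on the compared groups alone. Replicate libraries scattered unequally: differences in counts relative to counting error (chi-square per degree of freedom) were 8.67 to 13.2 between TMG_E2 libraries. In E2, TMG and Ctrl they were 2.41 to 4.17. The main fit uses a shared estimate of the spread for all groups, so p-values of comparisons with TMG_E2 rest on groups of unequal spread. The part of this in the numbers of calls was not tested. The replicate block changed the calls of Ube2o and Ube2z given in the text.

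Leaving out each replicate gave 6561 to 6624 called genes in E2 vs Ctrl, 6661 to 6824 in TMG_E2 vs TMG, 198 to 257 in TMG vs Ctrl, 659 to 1159 in TMG_E2 vs E2 and 15 to 161 for the interaction (lowest without Ctrl replicate 3, highest without TMG_E2 replicate 3). Members called were 17 to 19, 19 to 22, 0 to 2, 0 to 3 and 0 to 1 in the same order. With library size alone, calls over all genes split into 2876 higher and 3939 lower in E2 vs Ctrl, 2900 and 3998 in TMG_E2 vs TMG, 180 and 232 in TMG vs Ctrl (249 and 177 with TMM), and 354 and 763 in TMG_E2 vs E2 (464 and 591 with TMM). For the 6 members at 0 counts, depth sets a limit of 3 counts.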
